A study of Glycine max with 18 samples.

Results

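The 91 genes described here were the most abundant transcripts of the imbibed soybean seed. They were the 100 genes with the highest mean FPKM (fragments per kilobase of transcript scaled to the mapped fragments of the library) over the 6 libraries of stage 1, less 9 genes that the study lists elsewhere as its candidates. They are 91 of the 45955 genes measured. The study sequenced RNA from whole germinating seeds of TW-1, a low-phytate soybean line made by gamma irradiation, and of TW-1-M, a natural mutant found within TW-1. TW-1 emerges poorly in the field and TW-1-M emerges better, and both lines carry the same deletion in GmMIPS1, the gene of myo-inositol 3-phosphate synthase, an enzyme at the start of phytate synthesis. No line with an intact GmMIPS1 was sequenced, so neither line is a normal control. The study's germination tests were run in the dark on agar gel. Seeds for sequencing were taken at the end of imbibition (stage 1) and, by the labels, 12 h later (stage 2). That interval is shorter in the study's methods. Stage 3 was taken when the primary root had reached 1 mm. Each of the 6 groups had 3 libraries, named here by line and stage (TW-1-1 to TW-1-3 and TW-1-M-1 to TW-1-M-3), and values are always given in the order of replicates 1, 2 and 3.

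A dry seed keeps a store of messenger RNA made during late maturation, and much of this store encodes proteins that protect the embryo while it dries. Late embryogenesis abundant (LEA) proteins, dehydrins among them, are hydrophilic proteins that accumulate under abscisic acid and are linked to desiccation tolerance. After imbibition this stored RNA is normally broken down while the seed switches to transcripts of growth. Oleosins coat the oil bodies of the seed, and defensins, protease inhibitors and lipoxygenases are common parts of its defence.

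A count of 27 members carried a description or symbol of LEA or seed maturation proteins, among them the PM genes, a series of soybean seed maturation genes. A further 15 had another description, namely 3 oleosins, 3 genes of cystatins or lipoxygenase, 2 defensin-like genes and 7 genes of other kinds. The remaining 49 had no description, although some carried a telling symbol. The class of 27 was taken from names alone and holds genes whose symbols do not speak of protection, such as CP3, placed by its synonym GmPM33, and PGMPM19, described as a metallothionein. Curated RefSeq records (accessions with NM) made up 51.6% of the members and 9.65% of all genes. The descriptions came from the study's lists of genes that changed in these same samples, so the share of described genes among the members is not independent of the outcome. Because the members were chosen on stage 1, every difference from stage 1, and between the lines at stage 1, is given as a description without a test. Their stage 1 means ran from 1064 to 28999.8 FPKM with a median of 2006 FPKM, and the first 10 held 45.0% of the summed mean of all 91. The last gene inside the limit, LOC100527215, had a mean of 1064 FPKM, and the first gene outside it, a transcript of 60S ribosomal protein L10, had 1061 FPKM. Oleosin and LEA transcripts, which mark seed tissue, were abundant, whereas the genes found by symbol as storage proteins were no members, the most abundant glycinin gene, GY2, at 512 FPKM and the most abundant conglycinin gene, CG-1, at 309 FPKM.

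A library of TW-1-3 stood apart. Its replicate 1 had the highest value of its group for 79 of the 91 members, with a median of 3.43 times the mean of replicates 2 and 3 and 0.802 times the TW-1-1 mean. Over all genes its correlation with the stage 1 libraries was 0.92, against 0.779 with the other libraries of its own group. TW-1-3 is therefore described below with and without replicate 1. Replicate 1 of TW-1-2 was the highest of its group for 67 members, and replicate 2 of TW-1-M-3 for 72. The summed FPKM of a library ranged from 683231 to 1296622. Chlorophyll a-b binding genes, which mark greening tissue, went in summed mean FPKM from 146 to 1522 in TW-1 and from 135 to 1314 in TW-1-M between stages 1 and 3, and their part in the lower level of the members was not tested. In these whole-seed samples fewer cells of a type and less RNA per cell cannot be told apart.

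The mean share of FPKM held by the members was lower at each later stage in both lines, and TW-1-M had the lower mean at stages 2 and 3. Of all FPKM summed in a library they held 33.4% ± 4.45 (SD, n = 3) for TW-1-1, 29.4% ± 2.86 for TW-1-2 and 19.5% ± 9.86 for TW-1-3. In TW-1-M the shares were 30.5% ± 0.802 at stage 1, 15.5% ± 0.970 at stage 2 and 10.7% ± 3.92 at stage 3. The wide spread of TW-1-3 came from replicate 1 at 30.9%, since replicates 2 and 3 were at 13.3% and 14.3%. All 3 TW-1-M-2 libraries lay below all 3 TW-1-2 libraries, whereas the stage 3 libraries of the lines overlapped. Within TW-1 the libraries of consecutive stages overlapped. In TW-1-M stages 1 and 2 did not overlap. Stages 2 and 3 did, with replicate 2 of TW-1-M-3 at 14.8% and replicate 3 of TW-1-M-2 at 14.3%.

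**Figure D1:**
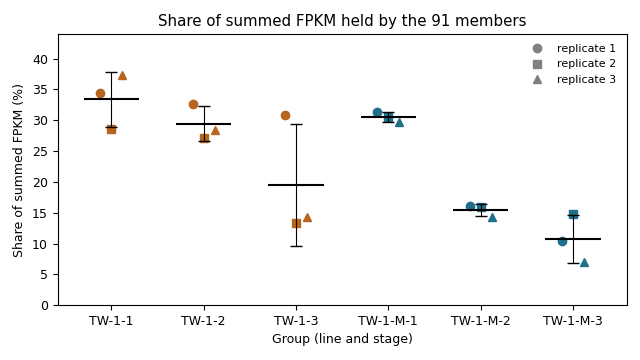
Percentage of the summed FPKM of each library held by the 91 members (vertical axis) in the 6 groups of 3 libraries (horizontal axis), with symbols for replicates, the mean as a bar and the SD as whiskers. TW-1-2 stayed between 27.2% and 32.6% and TW-1-M-2 between 14.3% and 16.2%, and replicate 1 of TW-1-3 sat at 30.9%, apart from the other 2 libraries of its group.

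Ranked by group mean, 86 members were among the first 100 genes of TW-1-1, with 79 for TW-1-2 and 48 for TW-1-3, or 34 without replicate 1. The counts in TW-1-M were 76, 48 and 28. A set of 23 members was among the first 100 in all 6 groups, and the count was also 23 without replicate 1 of TW-1-3. These included the defensin-like gene LOC100779239, LEA5, the dehydrin LOC100137078, the lipoxygenase gene LOX3, the lipid-transfer gene LOC100817318, IFS1 (isoflavone synthase, which makes isoflavones) and LOC548038, listed under the synonym TCTP (translationally controlled tumor protein).

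In TW-1 the median member stood at 0.675 of its stage 1 level at stage 2 and at 0.474 at stage 3, or 0.218 without replicate 1. In TW-1-M the medians were 0.363 and 0.116. At or below 0.5 of stage 1 at stage 2 stood 12 members for TW-1 and 57 for TW-1-M, and at stage 3 the counts were 48 (66 without replicate 1) and 72. Of all genes tested that had a stage 1 mean above 0, 2.23% and 13.0% were that low at stage 2, and 14.9% (24.3% without replicate 1) and 21.8% at stage 3, in TW-1 and TW-1-M, but the stage 1 level chose the members and nothing is read from the gap. At 0.1 of stage 1 or less at stage 3 were 13 members for TW-1 (30 without replicate 1) and 44 for TW-1-M, against 0.64% (1.83%) and 2.09% of those genes.

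The classes of genes are described apart, with no test. The descriptions came from lists of genes that changed in these samples, so a lower ratio in the described classes is in part built in. The 27 LEA and seed maturation genes had a median of 0.145 of stage 1 in TW-1-3 (0.0903 without replicate 1) and of 0.0224 in TW-1-M-3. The 15 other described genes had medians of 0.272 (0.127) and 0.0497. Of the 49 undescribed genes, 2 were listed at 0 in at least 1 library, and the other 47 had medians of 0.961 (0.398) and 0.298. Above the stage 1 level at stage 3 were 23 of these 47 in TW-1 (9 without replicate 1) and 6 in TW-1-M. In the LEA class none was above it in either line.

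**Figure D2:**
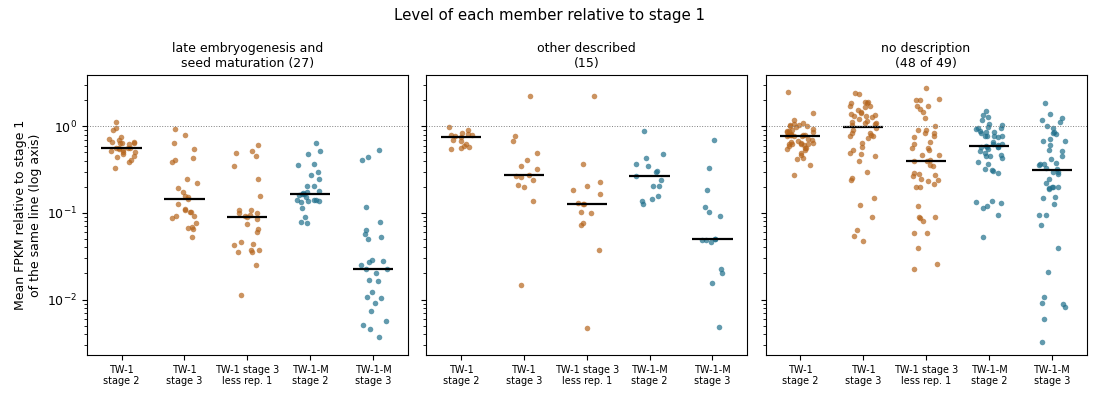
Mean FPKM of each member divided by its stage 1 mean in the same line (vertical log axis), for both lines and stages and for TW-1 stage 3 without replicate 1 (horizontal axis), in 3 classes of genes. Each point is a gene and each bar a median. The undescribed member XM_003519333.3, with a stage 1 mean of 1.48 FPKM in TW-1, is left out. XM_014766390.1, listed at 0 in replicate 3 of TW-1-1, is shown. The bars of the undescribed class are thus not over the same 47 genes as the medians in the text. The LEA class drops from a median of 0.565 in TW-1 stage 2 to 0.0224 in TW-1-M stage 3, while the undescribed class spreads across the dotted line of no change.

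The tests compared only stages 2 and 3, which the choice of members did not use, and were made with limma on log2(FPKM + 1) over 27150 genes. All 91 members were among these. A gene was called at a p below 0.05 after adjustment over all these genes by the method of Benjamini and Hochberg (BH). Calls by the study's own thresholds, an unadjusted p below 0.05 with a change beyond 1 on the log2 scale, are given beside them. The labels do not say whether replicates came from separate batches of seed, so the p-values measure the spread between these libraries.

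From stage 2 to stage 3 in TW-1-M, 37 members were called lower and 0 higher, against 1.62% and 1.61% of all genes. At an unadjusted p below 0.05 the counts were 65 lower (13.0% of all genes) and 1 higher (12.6%), and by the study's thresholds 64 (4.41%) and 1 (4.03%). The median log2 difference of the members was -1.83 and that of all genes 0.00. The groups did not overlap, stage 3 being lower, for 64 members, against 15.5% of all genes. The count moved with the libraries and with the filter on low values. It ranged from 7 without replicate 1 of TW-1-M-2, where 0.081% of all genes were called lower, to 56 without replicate 2 of TW-1-M-3, where 4.64% were. It was 16 without replicate 2 and 15 without replicate 3 of TW-1-M-2, with 67 and 65 of all 27150 genes called lower. Without replicate 1 of TW-1-M-3 it was 16, with 72 of all genes called lower. When genes of any low level were tested too it was 0, with 1 of 45955 genes called lower.

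In TW-1 the same step gave 0 calls among the members, and 0.0% of all genes were called in either direction. By the study's thresholds 34 members were lower (4.36% of all genes) and 4 higher (3.4%), and the unadjusted p alone gave 34 lower (7.84%) and 5 higher (6.57%). The median log2 difference of the members was -0.83, that of all genes 0.10. With each library scaled to the same summed FPKM these medians were -0.99 and -0.01. Without replicate 1 of TW-1-3 they were -1.68 and 0.10, and 49 members were called lower and 1 higher, against 12.9% and 15.0% of all genes. The study's thresholds then gave 54 lower (11.8% of all genes) and 3 higher (16.4%). With the replicate number as a block, 0 members were called, and by the study's thresholds 39 were lower (5.83% of all genes) and 4 higher (6.57%).

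The study reports faster germination for TW-1-M than for TW-1. Stage 2 was set by time, so line and progress through germination cannot be told apart there. The part of progress in the differences below was not tested. The median member of TW-1-3 without replicate 1 stood at 0.854 of its TW-1-M-2 mean. At stage 2, 39 members were called lower and 1 higher when TW-1-M was compared with TW-1, against 9.87% and 9.33% of all genes. The median log2 difference was -1.13 over the members and 0.08 over all genes. When each library was scaled to the same summed FPKM the median of all genes moved to 0.25 at stage 2 and to 0.36 at stage 3, and that of the members to -0.91 and -1.46. Under quantile normalization the members had a median of -0.54 at stage 2 and all genes one of 0.00. For 57 members every TW-1-M-2 library lay below every TW-1-2 library, against 21.5% of all genes, and for 2 members above, against 25.7%. By the study's thresholds 47 were lower (7.5% of all genes) and 1 higher (10.4%). The count of 40 calls fell to 24 without replicate 2 and to 19 without replicate 3 of TW-1-M-2 (2.62% and 1.94% of all genes), and to 14 with no filter on low values (2.53%). The lines already differed at stage 1, which chose the members, and the calls were split by stage 1 level after the data were seen. The 17 members whose TW-1-M-1 mean was at or below 0.5 of that of TW-1-1 were all called lower at stage 2, and of the other 74 there were 22 called lower and 1 higher. A set of 16 members had a mean as high as that of the last member in TW-1 alone and held 9 of the lower calls, a set of 3 in TW-1-M alone held the higher call, and the 72 that reached it in both lines held 30 lower calls.

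At stage 3, 0 members were called between the lines, against 0.011% of all genes lower and 0.00737% higher in TW-1-M. By the study's thresholds 52 were lower (3.05% of all genes) and 1 higher (1.99%), and at the unadjusted p alone 55 (4.84%) and 1 (4.03%). The median log2 difference was -1.93 over the members and 0.01 over all genes, or -1.19 and -0.02 without replicate 1 of TW-1-3. Without that library 6 members were called lower (0.11% of all genes) and 1 higher (0.0626%), and the thresholds of the study gave 45 lower (2.22%) and 1 higher (1.2%). In a fit of all 18 libraries together 42 were called lower (1.87%) and 1 higher (1.26%).

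**Figure D3:**
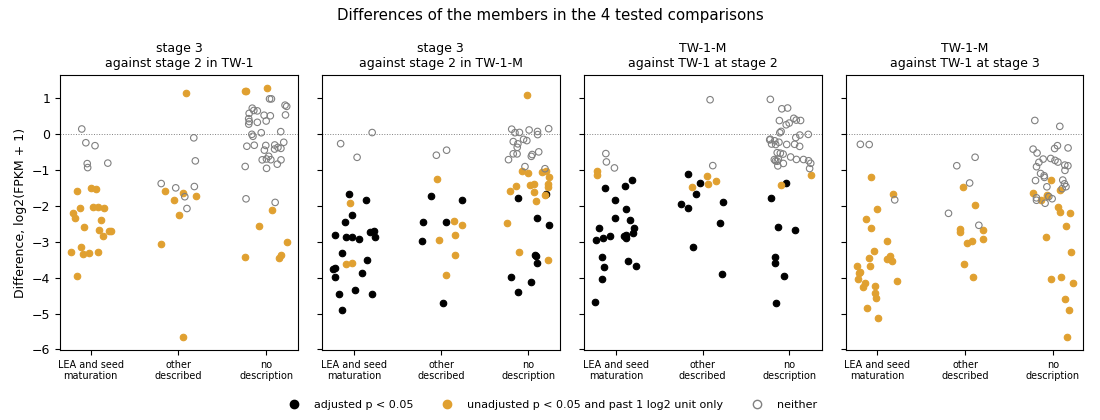
Difference of each member on the log2(FPKM + 1) scale (vertical axis) in the 4 tested comparisons, by class of gene (horizontal axis), with filled black points for calls at the adjusted p, orange points for genes past the study's thresholds only and open points for neither. XM_003519333.3, at 10.14 and 9.33 in the comparisons of the lines, is left out of all panels. Black points occur in TW-1-M between stages and between the lines at stage 2, and the LEA class has the lowest median in both.

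The LEA and seed maturation genes held 21 of the 37 calls in TW-1-M and 22 of the 39 lower calls between the lines. Of these 27, 21 were called lower at stage 3 than at stage 2 in TW-1-M and 22 lower at stage 2 when TW-1-M was set against TW-1. The shares of all genes called lower were 1.62% and 9.87%. Genes of the class already differed between the lines at stage 1, which chose the members. SLE2, TENA_E, PM28, PGMPM10 and PM35 were among the 17 members with a TW-1-M-1 mean at or below 0.5 of TW-1-1. All 17 were called lower at stage 2. PM31 was higher in TW-1-M-1, at 1.68 of TW-1-1. The 22 calls between the lines thus cannot be set apart from the choice of members. Nor can they be set apart from progress through germination. Of all 41 genes of this description that were tested, members included, the counts were 33 and 34, but the descriptions came from lists of genes that changed in these samples and are not independent of the calls. The class showed 0 calls in TW-1 from stage 2 to 3, where 0.0% of all genes were called. By the study's thresholds 21 of the 27 were lower there, against 33 of the 41 genes and 4.36% of all genes. Without replicate 1 of TW-1-3, 22 of the 27 were called lower, against 12.9% of all genes. The median log2 differences of the 27 were -2.87 in TW-1-M between the stages, -2.19 in TW-1, -2.62 between the lines at stage 2 and -3.54 at stage 3. Without replicate 1 of TW-1-3 the medians were -2.72 in TW-1 and -3.01 between the lines at stage 3.

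PM9, a seed maturation gene, was second of all genes at stage 1. In TW-1, PM9 stood at 22879, 14767 and 33554 FPKM at stage 1, at 18995, 13732 and 13061 at stage 2 and at 8939, 3064 and 1702 at stage 3. In TW-1-M it stood at 8977, 14804 and 13572 FPKM at stage 1, at 1686, 3012 and 1642 at stage 2 and at 277, 296 and 264 at stage 3. Each TW-1-M library of stages 2 and 3 was below each TW-1 library of that stage. The difference between the lines at stage 2 was -2.89 ± 0.42 (SE, limma, BH-adjusted p = 0.00877), and that from stage 2 to 3 in TW-1-M was -2.86 ± 0.33 (SE, limma, BH-adjusted p = 0.0113).

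SLE2 encodes an Em protein, a LEA protein of the type first known from wheat embryos. Its TW-1 values were 8997, 3446 and 13927 FPKM at stage 1, 7376, 3314 and 3638 at stage 2 and 1039.8, 592 and 149.8 at stage 3. Those in TW-1-M were 1059.7, 3505 and 2499.8 FPKM at stage 1, 125, 244 and 172 at stage 2 and 10.4, 14.6 and 11.2 at stage 3. The TW-1-M libraries were already lower at stage 1 on average, though replicate 2 there exceeded replicate 2 of TW-1, and at stages 2 and 3 the lines did not overlap. The difference of SLE2 between the lines at stage 2 was -4.67 ± 0.41 (SE, limma, BH-adjusted p = 0.00253), and its step from stage 2 to 3 in TW-1-M was -3.76 ± 0.28 (SE, limma, BH-adjusted p = 0.00607). At stage 3 the line difference was -5.13 ± 0.69 (SE, limma, BH-adjusted p = 0.143).

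MAT1, a maturation-associated gene listed as a dehydrin, had the largest called fall of a member from stage 2 to 3 in TW-1-M. Its TW-1 values were 4329.9, 1724 and 4420.4 FPKM at stage 1, 3794, 1641 and 2061 at stage 2 and 603, 173 and 132 at stage 3. In TW-1-M they were 2478, 2589.9 and 2117 FPKM at stage 1, 267, 322 and 424 at stage 2 and 10.5, 40.9 and 1.93 at stage 3. The stages 2 and 3 did not overlap in either line. The step was -4.89 ± 0.80 (SE, limma, BH-adjusted p = 0.0274) in TW-1-M and -3.28 ± 0.67 (SE, limma, BH-adjusted p = 0.222) in TW-1, where it was called without replicate 1 of stage 3, at -3.94 (limma, BH-adjusted p = 0.0111).

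TENA_E, described as seed maturation protein PM36, and PM28 were called lower in both of these comparisons. The TENA_E mean was 3629 ± 1719 FPKM (SD, n = 3) in TW-1-2 and 273 ± 97.0 FPKM in TW-1-M-2, and PM28 had 3399 ± 1264 and 293 ± 113 FPKM. At stage 3 in TW-1-M their means were 12.8 ± 5.57 and 15.0 ± 12.0 FPKM. TENA_E had the lowest ratio of stage 3 to stage 1 of the class in TW-1-M, 0.0037, and it ranked 8064th of all genes there after rank 19 at stage 1. PM35 had a difference between the lines at stage 2 of -4.04 ± 0.43 (SE, limma), after stage 1 means of 1943 FPKM in TW-1 and 532 FPKM in TW-1-M. It was a member through TW-1 alone, which favoured this direction, so the difference is given as a description. PGMPM10 had a step from stage 2 to 3 in TW-1-M of -4.46 ± 0.38 (SE, limma, BH-adjusted p = 0.00720). PM30, at rank 8 of stage 1, and PM1, at rank 9, were called lower in the same comparisons, with line differences of -2.61 ± 0.41 (SE, limma, BH-adjusted p = 0.0112) and -2.91 ± 0.37 (SE, limma, BH-adjusted p = 0.00641). CP3 at rank 10 passed the study's thresholds only, at -1.04 ± 0.38 (SE, limma, BH-adjusted p = 0.0857), and turned to 0.15 under quantile normalization.

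LEA5, a desiccation protective gene, had a TW-1-3 mean of 0.923 of stage 1, or 0.491 without replicate 1. Its TW-1 values were 13142, 12984 and 17562 FPKM at stage 1, 10441, 9388 and 8850.0 at stage 2 and 26039.8, 9778 and 4517 at stage 3. In TW-1-M they were 8771, 18779 and 12763 FPKM at stage 1, 3320.1, 4755 and 3829.6 at stage 2 and 532, 1079 and 972 at stage 3. In TW-1, stage 3 overlapped stages 1 and 2, with replicate 1 of stage 3 the highest of the 9 libraries, and stages 1 and 2 did not overlap. The TW-1-M stages 2 and 3 did not overlap. The step from stage 2 to 3 was 0.14 ± 0.72 (SE, limma, BH-adjusted p = 0.932) in TW-1, or -0.52 (limma, BH-adjusted p = 0.504) without replicate 1 of TW-1-3, and -2.25 ± 0.38 (SE, limma, BH-adjusted p = 0.0293) in TW-1-M. The test of the difference between these steps gave -2.39 ± 0.77 (SE, limma, BH-adjusted p = 0.424).

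LOC100137078, a KS-type dehydrin, was the member of the class that stood highest at stage 3 against stage 1 in TW-1-M. Its TW-1-M values were 2734, 2190.0 and 1825 FPKM at stage 1, 1029, 1199 and 1029 at stage 2 and 1626, 602 and 1399 at stage 3. In TW-1 they were 4347, 1559 and 2172 FPKM at stage 1, 2812, 3466 and 1441 at stage 2 and 1998, 1709 and 735 at stage 3. Both lines overlapped at stage 3, and the step from stage 2 to 3 in TW-1-M was 0.04 ± 0.42 (SE, limma, BH-adjusted p = 0.964). LOC100795960, a homolog of Lea14 from cotton, was at 1829, 2069 and 2153 FPKM at stage 2 and at 916, 687 and 576 at stage 3 in TW-1. The TW-1-M libraries were at 825, 762 and 549 FPKM at stage 2 and at 536, 419 and 870.4 at stage 3. It was lower in TW-1-M at stage 2 without overlap, with a difference of -1.52 ± 0.30 (SE, limma, BH-adjusted p = 0.0200), and the lines overlapped at stage 3.

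The 15 other described members were led by LOC100779239, a defensin-like gene and the most abundant transcript at stage 1. Defensins are small cysteine-rich peptides that act against fungi. In TW-1, LOC100779239 stood at 35099.9, 23789.5 and 23927 FPKM at stage 1, at 26473, 23972 and 17275 at stage 2 and at 37176, 2398 and 1634 at stage 3. In TW-1-M it stood at 43402, 29325 and 18456 FPKM at stage 1, at 10350.3, 10009 and 6914 at stage 2 and at 885, 2702 and 612 at stage 3. In TW-1-3 replicate 1 was at the level of stage 1, and the other libraries lay far below it within the range of TW-1-M-3. The step from stage 2 to 3 was -2.98 ± 0.56 (SE, limma, BH-adjusted p = 0.0379) in TW-1-M, and the line difference at stage 2 was -1.31 ± 0.45 (SE, limma, BH-adjusted p = 0.0737), not called although the libraries did not overlap. The other defensin-like gene, LOC100306228, had a mean of 7193 ± 2499 FPKM in TW-1-2 and 795 ± 149 FPKM in TW-1-M-2, a difference of -3.14 ± 0.37 (SE, limma, BH-adjusted p = 0.00501).

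The 3 oleosin genes, P91, LOC100789191 and XM_003553774.3, were all called lower in TW-1-M at stage 2. P91 had TW-1 values of 2754, 792 and 2715 FPKM at stage 1, 2728, 927 and 1362 at stage 2 and 1139, 334 and 197 at stage 3. Its TW-1-M values were 2337, 1786 and 1751 FPKM at stage 1, 461, 426 and 300.1 at stage 2 and 70.3, 213 and 10.04 at stage 3. Stage 3 in TW-1-M was below stage 2 in each library, and the lines overlapped at stage 3. The line difference at stage 2 was -1.95 ± 0.43 (SE, limma, BH-adjusted p = 0.0262), and the step from stage 2 to 3 in TW-1-M, -2.82 ± 0.90 (SE, limma, BH-adjusted p = 0.104), was not called. Oleosin genes of 1 family share sequence, as do dehydrins, PM genes and the isoflavone synthases IFS1 and IFS2, so reads may have been split between copies and their levels are uncertain.

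The multicystatin transcript XM_014766649.1, an inhibitor of cysteine proteases, had a mean of 3469.8 ± 836 FPKM in TW-1-2 and 1072 ± 156 FPKM in TW-1-M-2, a difference of -1.68 ± 0.33 (SE, limma, BH-adjusted p = 0.0203). LOX3, a seed lipoxygenase that oxidises polyunsaturated fatty acids, had 6605 ± 1496 and 2649 ± 1265 FPKM in the same groups, which did not overlap but were not called, at -1.39 ± 0.44 (SE, limma, BH-adjusted p = 0.0613). LOX3 was among the first 100 genes in every group, lowest in TW-1-M-3 at rank 90.

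LOC100780139, described as similar to SBP65, a seed biotin-containing protein known from pea, had the lowest ratio of stage 3 to stage 1 of all members in TW-1, 0.0149. In TW-1 it was at 3761, 2039 and 2002 FPKM at stage 1, at 2576, 1279.7 and 622 at stage 2 and at 91.9, 10.8 and 13.9 at stage 3. TW-1-M had it at 627, 759 and 379 FPKM at stage 1, at 144, 49.7 and 81.5 at stage 2 and at 2.12, 5.76 and 0.570 at stage 3. No library of stage 3 reached any library of stage 2 of its line. The step was -4.72 ± 0.55 (SE, limma, BH-adjusted p = 0.0113) in TW-1-M and -5.65 ± 0.90 (SE, limma, BH-adjusted p = 0.190) in TW-1, and without replicate 1 of TW-1-3 the step in TW-1 was -6.58 (limma, BH-adjusted p = 0.00983).

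Other described members included the small heat shock protein gene LOC100779969, whose mean went from 3652 ± 1516 FPKM in TW-1-M-1 to 465 ± 84.4 in TW-1-M-2, and LOC100797229, a linker histone H1 gene, from 977 ± 274 to 261 ± 49.7 FPKM. The ribosomal protein gene LOC100805806, annotated for the chloroplast, was among the first 100 genes in every group and was not called in any comparison. LOC100527811, described as the phosphatase IMPL2, and LOC100777195, a subtilisin-like protease, were called lower from stage 2 to 3 in TW-1-M and between the lines at stage 2, the line differences being -1.90 ± 0.36 (SE, limma, BH-adjusted p = 0.0193) and -1.36 ± 0.37 (SE, limma, BH-adjusted p = 0.0420).

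The lipid-transfer gene LOC100817318 had a higher mean in TW-1-3 than in TW-1-1. Non-specific lipid-transfer proteins are small secreted proteins that bind lipids. Its TW-1 values were 2287, 904 and 3806 FPKM at stage 1, 1766, 3013 and 2085 at stage 2 and 5062, 7138 and 3328 at stage 3. Its TW-1-M values were 3973, 4501 and 6139 FPKM at stage 1, 4030.4, 5123 and 3873 at stage 2 and 5129.6, 2470.1 and 2450.1 at stage 3. In TW-1 every stage 3 library was above every stage 2 library, and in TW-1-M the stages overlapped. The step was 1.15 ± 0.48 (SE, limma, BH-adjusted p = 0.347) in TW-1, past the study's thresholds only and past neither rule without replicate 1 of TW-1-3. It was -0.45 ± 0.42 (SE, limma, BH-adjusted p = 0.526) in TW-1-M, and the difference between the steps was -1.60 ± 0.57 (SE, limma, BH-adjusted p = 0.457).

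**Figure D4:**
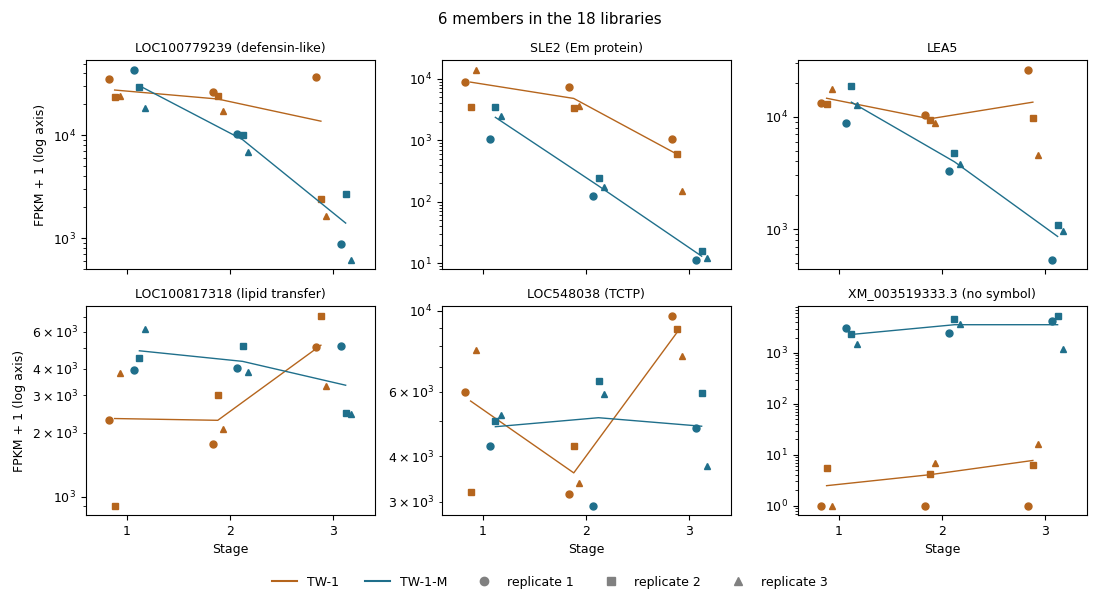
FPKM + 1 (vertical log axis) of 6 members in all 18 libraries by stage (horizontal axis), with colours for lines, symbols for replicates and lines through the group means. LOC100779239, SLE2 and LEA5 fall in TW-1-M, LOC100817318 and LOC548038 have all TW-1-3 libraries above all TW-1-2 libraries, and XM_003519333.3 stays under 15.0 FPKM in TW-1 and above 1181 FPKM in TW-1-M.

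Of the 19 members above 0.5 of stage 1 in TW-1-M-3, 17 were undescribed, and the other 2 were LOC100817318 and LOC100137078. The source of the descriptions in part fixes this, since those lists hold genes that changed. XM_014766390.1, with no symbol, was the most abundant gene at stage 3 in both lines by group mean, and of rank 2 in TW-1-3 without replicate 1. In TW-1 it was at 17047, 12641 and 0 FPKM at stage 1, at 26639, 12442 and 34714 at stage 2 and at 31212, 19096 and 21959.7 at stage 3. In TW-1-M it was at 32570.3, 14434 and 28937 FPKM at stage 1, at 9646, 13570.2 and 16007 at stage 2 and at 24806, 34122 and 3337 at stage 3. It is listed at 0 in replicate 3 of TW-1-1, where no other member but XM_003519333.3 is, and such a 0 can be a failed estimate. The groups overlapped in all comparisons of stages 2 and 3.

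MET2 ranked from 2 to 4 in all 6 groups. Its TW-1 values at stages 2 and 3 were 17355, 16156 and 13094 FPKM at stage 2 and 42746, 17765 and 10178 at stage 3. In TW-1-M they were 6402, 11344 and 6792 FPKM at stage 2 and 5142, 6482 and 3325 at stage 3. TW-1-M was lower without overlap at both stages, with differences of -0.97 ± 0.44 (SE, limma, BH-adjusted p = 0.141) at stage 2 and -2.04 ± 0.58 (SE, limma, BH-adjusted p = 0.538) at stage 3, or -1.48 without replicate 1 of TW-1-3, none of them called. LOC100813859, at rank 6 of stage 1, was among the first 11 genes in all groups, and its difference between the lines at stage 2 was -1.14 ± 0.49 (SE, limma, BH-adjusted p = 0.123), turning to 0.05 under quantile normalization.

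LOC548038 (TCTP), a conserved protein of growing cells, was at 5984, 3192 and 7809 FPKM at stage 1, at 3144, 4272 and 3378 at stage 2 and at 9703, 8905 and 7545 at stage 3 in TW-1. It was at 4257, 4995 and 5192 FPKM at stage 1, at 2925, 6444 and 5919 at stage 2 and at 4790.0, 5941 and 3759 at stage 3 in TW-1-M. In TW-1 each library of stage 3 was above each of stage 2, a step of 1.28 ± 0.42 (SE, limma, BH-adjusted p = 0.286) that passed the study's thresholds only. In TW-1-M the stages overlapped and the step was -0.02 ± 0.45 (SE, limma, BH-adjusted p = 0.983).

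LOC100500087 and LOC100788626, both undescribed, likewise passed the study's thresholds upward in TW-1. LOC100500087 was at 786, 1308 and 1295 FPKM at stage 2 and at 1769.6, 3567 and 2579.7 at stage 3 in TW-1. Without replicate 1 of TW-1-3 it was the member called higher, with a step of 1.46 (limma, BH-adjusted p = 0.0489). In TW-1-M its step was -0.28 ± 0.38 (SE, limma, BH-adjusted p = 0.676). LOC100788626 was at 732, 1306 and 948 FPKM at stage 2 and at 3003, 2402 and 1469.8 at stage 3 in TW-1, a step of 1.18 ± 0.45 (SE, limma, BH-adjusted p = 0.321), and without replicate 1 it was at 0.96 and passed neither rule.

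XM_003533814.3, with no symbol, was the member that passed the study's thresholds upward in TW-1-M from stage 2 to 3. Its TW-1-M values were 2327, 1319 and 1842 FPKM at stage 1, 1314, 1768 and 1631 at stage 2 and 4319.9, 2973 and 2822 at stage 3. Its TW-1 values were 1302, 761 and 2038 FPKM at stage 1, 2165, 1341 and 2386 at stage 2 and 2273, 2974 and 2469 at stage 3. The TW-1-M stages 2 and 3 did not overlap, and the step there was 1.09 ± 0.35 (SE, limma, BH-adjusted p = 0.105). Its stage 3 mean was 1.84 times that of stage 1 in TW-1-M and 1.88 times in TW-1.

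At the other end of the undescribed class, SLE3, LOC102661014, XM_014770622.1, LOC100788468, LOC100785774 and NM_001249864.1 were called lower both from stage 2 to 3 of TW-1-M and between the lines at stage 2. SLE3, whose symbol is of the same series as that of SLE2, was at 1804, 681 and 2270.4 FPKM at stage 1, at 885, 538 and 1181 at stage 2 and at 68.7, 147 and 40.3 at stage 3 in TW-1. The TW-1-M libraries were at 130.0, 1199 and 700.5 FPKM at stage 1, at 38.7, 55.0 and 13.7 at stage 2 and at 1.48, 1.88 and 3.10 at stage 3. Each TW-1-M library was below each TW-1 library of stages 2 and 3. Its stage 1 mean was 1585 FPKM in TW-1 and 677 FPKM in TW-1-M, so that it too was a member through TW-1 alone. The same held for LOC100788468, with stage 1 means of 2233 FPKM in TW-1 and 594 FPKM in TW-1-M. LOC100785774 likewise entered through TW-1 alone, at 1723 and 429 FPKM. SLE3 had the largest called negative difference between the lines at stage 2, -4.69 ± 0.52 (SE, limma). Entry through TW-1 alone favoured this direction, so the difference is given as a description. SLE3 also had the lowest ratio of stage 3 to stage 1 of all members in TW-1-M, 0.0032. XM_014770622.1 had a line difference of -5.67 ± 1.26 (SE, limma, BH-adjusted p = 0.456) at stage 3, the largest downward with all libraries, which passed the study's thresholds only. Without replicate 1 of TW-1-3 it was at -4.62, behind LOC100788468 at -4.78 and SLE3 at -4.66. LOC100306259 went in mean from 843 ± 523 FPKM in TW-1-2 to 78.6 ± 50.8 FPKM in TW-1-3, a step of -3.42 ± 0.60 (SE, limma, BH-adjusted p = 0.195) that passed the same thresholds and was called without replicate 1 of TW-1-3, at -3.91 (limma, BH-adjusted p = 0.0118).

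XM_003519333.3, with no symbol or description, set the lines apart at every stage. In TW-1 it was at 0, 4.43 and 0 FPKM at stage 1, at 0, 3.20 and 5.99 at stage 2 and at 0, 5.24 and 15.0 at stage 3. TW-1-M had it at 3068, 2372 and 1487 FPKM at stage 1, at 2488, 4638 and 3639.7 at stage 2 and at 4178, 5413 and 1181 at stage 3. It was listed at 0 in 4 of the 9 TW-1 libraries, and the lowest TW-1-M library was above the highest TW-1 library at each stage. It was the member called higher in TW-1-M at stage 2, 10.14 ± 0.66 (SE, limma), a value that depends on the pseudocount of 1 and is no fold. At stage 3 the difference was 9.33 ± 1.07 (SE, limma), or 8.23 without replicate 1 of TW-1-3. It entered the members through TW-1-M-1 alone. The choice of members thus favoured a higher level in TW-1-M, and these differences are given as a description.

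The step from stage 2 to 3 was tested for a difference between the lines in a fit of these 12 libraries. Of the members, 0 were called, against 0.011% of all genes higher and 0.0% lower. By the study's thresholds 9 were lower (2.78% of all genes) and 1 higher (2.35%), and the unadjusted p alone gave the same counts, against 4.29% and 4.63% of all genes. Without replicate 1 of TW-1-3 the thresholds gave 7 lower and 2 higher, against 8.85% and 5.3% of all genes, so the share of members lower was below that of all genes. The median difference between the steps was -1.01 over the members and -0.06 over all genes, or -0.27 and -0.08 without that library. The 9 included LEA5, PM3, LOC100817318, LOC548038, LOC100500087 and LOC100791863. PM3 was at 572, 1141 and 1809 FPKM at stage 2 and at 395, 1096 and 499.7 at stage 3 in TW-1. In TW-1-M it was at 452, 763 and 476 FPKM at stage 2 and at 89.0, 53.2 and 87.5 at stage 3. Its stages overlapped in TW-1 and not in TW-1-M, and the difference between the steps was -2.05 ± 0.69 (SE, limma, BH-adjusted p = 0.442). The member higher by these thresholds was LOC100795960, 1.22 ± 0.47 (SE, limma, BH-adjusted p = 0.481).

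At stage 1, where the choice of members fixed the levels, the median member in TW-1-M-1 was at 0.798 of TW-1-1. A ratio at or below 0.5 was seen for 17 members, among them SLE2 at 0.268 and TENA_E at 0.390, and a ratio at or above 2 for 3, namely XM_014766390.1, LOC100817318 and XM_003519333.3. For 21 members all TW-1-M-1 libraries were below all TW-1-1 libraries (13.2% of all genes) and for 3 above (8.45%). The spread of replicates differed by group. The median coefficient of variation over the 89 members never listed at 0 was lowest for TW-1-M-2, at 21.9%, and highest for TW-1-3, at 79.0%.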

How the data were processed

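The deposited table holds FPKM values that the authors made from RNA-seq reads; the submitters' notes name Trimmomatic and TopHat, and per the study's methods cuffquant and cuffnorm gave the FPKM. The table holds no counts and read depth was not used here, so no counting interval is given, and the 3 libraries of a group limit the precision. Gene symbols came from the RefSeq annotation Glycine_max_v4.0 (75 of 91 members matched by accession), and descriptions from the study's gene lists. The builds differ, so no coordinates are given. Of the 78 candidate genes to leave out, 6 could not be paired with an accession.

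The tests covered the 27150 genes that reached an FPKM of 1 in 3 or more of the 18 libraries, on log2(FPKM + 1), with limma 3.58.1 in R 4.3.3 (lmFit, eBayes with trend, two-sided), using only the libraries compared. A fold on this scale understates the change of low genes. The fit was checked on simulated data with independent noise in each library. That check held no library standing apart and no deviation shared by replicate number, so it does not cover them. Replicate numbers deviated together from stage 2 to 3 in TW-1 (correlations of 0.673, 0.542 and 0.457 for numbers 1, 2 and 3, from the data, as the labels give no shared batch). In each other comparison at least 1 number was under 0.1, with 0.199, 0.280 and 0.0672 between the lines at stage 2. Values are means ± SD of 3 libraries. Named genes were the 10 highest at stage 1, up to 5 per direction with the largest difference in each comparison, the 5 lowest and highest ratios of stage 3 to stage 1, those at the rank limit and up to 4 per class. IFS1 and LOC100137078 were chosen after their values were seen, while PM3 and LOC100791863 met the rule in the test of the difference between the steps. The members and lists were chosen with earlier results of these data known. Promoter sequences were not analysed here. Alternatives were another pseudocount, filter, scaling, fit and rank limit, the replicate block, and each library left out.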

Additional observations from a re-analysis of the deposited data

Results flagged for a closer look

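LOC100791863, an undescribed member, moved in opposite directions between stages 2 and 3 in the lines. In TW-1 it was at 831, 765 and 648 FPKM at stage 2 and at 2890.1, 1071 and 1009.98 FPKM at stage 3, so that every library of stage 3 was above every library of stage 2. In TW-1-M it was at 612, 863 and 833 FPKM at stage 2 and at 389, 607 and 507 FPKM at stage 3, with every library of stage 3 below. The change in TW-1-M less that in TW-1 was -1.60 ± 0.56 (SE, limma, BH-adjusted p = 0.451) on the log2(FPKM + 1) scale, which did not pass the threshold. Without replicate 1 of TW-1-3 it was -1.11 (limma, BH-adjusted p = 0.149). The step in TW-1 was then 0.48 (limma, BH-adjusted p = 0.277) and was not called.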

How the results depend on the processing

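Each count of members is followed in brackets by the count of all genes called, of 27150 tested unless stated. The members called from stage 2 to 3 in TW-1 numbered 0 (0). They numbered 27 (2187) when all 18 libraries shared a fit, 38 (2105) by the study's thresholds and 43 (3368) by those thresholds with the replicate block. With a library left out they numbered 0 to 50, 50 (7582) being without replicate 1 of TW-1-3. The study's thresholds then gave 57 (7652), an alternative chosen after seeing the data, as was the block with these thresholds. In TW-1-M the 37 calls (879) became 65 (2291) by the study's thresholds and 0 (2 of 45955) with no filter. They became 31 (622) with the replicate block and 7 (24) to 56 (2300) with a library left out. Between the lines at stage 2, 40 calls (5213) became 14 (1162 of 45955) with no filter and 51 (7686) with the replicate block. With a library left out there were 19 (526) to 40 (4540). At stage 3, 0 calls (5) became 53 (1367) by the study's thresholds and 1 (11) with each library scaled to the same summed FPKM. They became 5 (19) with quantile normalization, 43 (851) in the fit of all libraries and 0 (0) with the replicate block. With a library left out there were 0 to 7, 7 (47) being without replicate 1 of TW-1-3, where the study's thresholds gave 46 (928). The difference between the steps gave 0 calls (3), and 10 (1395) by the study's thresholds, or 9 (3844) without replicate 1 of TW-1-3. It gave 0 (0) with the block and 0 (0 to 92) with any library left out.

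Under quantile normalization LOC100813859 and CP3 turned from lower to higher in TW-1-M at stage 2, at 0.0541 and 0.151. Members at or below 0.5 of stage 1 in TW-1-2 went from 12 to 29 with medians over replicates, to 5 with scaled libraries and to 7 to 32 with a library left out. The median ratio in TW-1-M-2 went from 0.363 to 0.431 with members chosen by the stage 1 median, which kept 84 of the 91, to 0.462 with scaled libraries and to 0.328 to 0.414 with a library left out. The cause of these shifts was not tested. The 3 libraries per group limit what small differences can be seen, and read depth was not used here.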
